A study of Mus musculus with 12 samples.

Results

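The protein genes of the cytosolic ribosome were followed in skeletal muscle and testis of male mice, together with the copies of them that are used mainly in muscle or in the male germ line. A gene was taken when its symbol had the form of a small-subunit (Rps) or large-subunit (Rpl) protein with an optional paralog letter, or was Rplp0, Rplp1, Rplp2 or Rpsa, and this gave 81 of the 47730 features in the table. A further 2 genes of that form were left out and are not analysed here. Of the 81 genes, 79 are annotated as protein coding, and Rps4l and Rpl6l are annotated as processed pseudogenes. The mutants were BckdkM/M mice, which the titles abbreviate as KO, and their controls were Bckdk+/+ wild types. Bckdk encodes the kinase that restrains breakdown of branched-chain amino acids. All mice were 5 to 6 months old, male and of C57BL/6J background, with free access to chow and water, and tissue was taken at ZT6 to ZT7. The 12 polyA libraries formed 4 groups of 3, namely BckdkM/M muscle (gastrocnemius with plantaris), Bckdk+/+ muscle, testis labelled BckdkM/M and Bckdk+/+ testis. The labels do not say what the M allele changes. Mice are given by letter in place of their column numbers. Values of a group are listed in the order D, F, G for mutant muscle, D, E, F for testis labelled mutant, and A, B, C for both wild-type tissues.

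Each ribosome holds a small subunit, which reads the mRNA, and a large subunit, which joins amino acids into protein, and cells need the protein parts in nearly equal amounts. Most mRNAs of these proteins start with a 5′ terminal oligopyrimidine (TOP) tract, through which mTOR and LARP1 set how strongly they are translated, so an mRNA level is not a rate of protein synthesis. A few parts have a tissue copy: striated muscle uses Rpl3l, a paralog of Rpl3 near the catalytic centre, and male germ cells use Rpl10l and Rpl39l, autosomal copies of the X-linked Rpl10 and Rpl39. The X chromosome is silenced during male meiosis, and Rpl10l is required for male fertility in mice. Branched-chain amino acids, above all leucine, activate mTOR.

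The start regions of genes that the tissue comparison turns on are printed first, so that Rpl10l and Rpl39l can be set beside their X-linked partners. Rps4x and Rpl36a are printed without their copies. Promoters from RefSeq (GRCm38.p6, 250 bases before to 50 after the start) were matched by symbol for 59 of the 81 genes. Shown are 60 bases before and 20 after the start, 5′ to 3′ on the gene's strand, with Rpl28 as a member whose start holds a pyrimidine tract. Capitals mark a match, on either strand, to CTCTTTC or CTTTCC (pyrimidine tracts, which overlap each other), CCGGAAG (the core bound by ETS factors) or TATAAA.
Rpl28 (chr7:4792905-4792984, plus strand): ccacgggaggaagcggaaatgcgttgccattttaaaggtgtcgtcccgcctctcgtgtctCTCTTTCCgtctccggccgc
Rpl3l (chr17:24727766-24727845, plus strand): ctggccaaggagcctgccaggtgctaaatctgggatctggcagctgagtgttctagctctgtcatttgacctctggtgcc
Rpl10l (chr12:66284382-66284461, minus strand): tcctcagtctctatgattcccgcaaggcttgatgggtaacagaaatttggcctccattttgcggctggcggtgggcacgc
Rpl10 (chrX:74270756-74270835, plus strand): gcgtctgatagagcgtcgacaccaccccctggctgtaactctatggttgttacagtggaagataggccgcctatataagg
Rpl39l (chr16:10170168-10170247, plus strand): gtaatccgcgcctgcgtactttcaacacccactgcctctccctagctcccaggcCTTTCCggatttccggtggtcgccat
Rpl39 (chrX:37085203-37085282, minus strand): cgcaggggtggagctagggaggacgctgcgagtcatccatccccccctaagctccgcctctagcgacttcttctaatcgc
Rps4x (chrX:102189372-102189451, minus strand): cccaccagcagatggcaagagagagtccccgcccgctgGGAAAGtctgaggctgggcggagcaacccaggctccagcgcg
Rpl36a (chrX:134585594-134585673, plus strand): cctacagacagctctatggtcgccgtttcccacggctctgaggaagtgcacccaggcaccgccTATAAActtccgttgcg

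Over the whole 300-base promoters the members held some of these motifs more often than genes at large. A gene was counted when any promoter listed for its symbol held the motif on either strand. CCGGAAG was present in 25 of the 59 members (42.4%), against 9.93% of all 27025 genes with promoters of the same length. CTCTTTC was present in 16 members (27.1%, against 9.28% of all genes) and the shorter CTTTCC in 33 (55.9%, against 29.3%). TATAAA was present in 6 members (10.2%, against 15.7%). In the windows printed, Rpl3l, Rpl10l, Rpl10 and Rpl39 have no capital. Rpl39l has CTTTCC before its start, and Rpl36a is the one with TATAAA, which lies just past the start. Over the 300 bases, Rpl10l held CTTTCC and Rpl39 held CCGGAAG and TATAAA. Over that length Rpl39l also held the core bound by ETS factors, and Rpl36a also held both pyrimidine tracts. Rpl3l and Rpl10 held none of the motifs. These matches describe letters and do not show binding.

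Counted reads ran from 12852427 to 15795722 per library. Values are normalised counts, that is reads divided by a size factor per library. Bckdk stood at 14.8, 14.3 and 12.4 in mutant muscle, against 2214, 2421 and 2627 in wild-type muscle. In testis labelled mutant it was 138, 119 and 114, above the 68.0, 73.3 and 71.0 of wild-type testis, so testis results are given by label. A feature of the table named NeoR ran the same way in both tissues, with 251, 208 and 266 in mutant muscle against 2.28, 3.25 and 3.85 in wild-type muscle, and 13.1, 19.9 and 18.6 in testis labelled mutant against 1.76, 2.50 and 3.34 in wild-type testis. Genes of pancreatic islets (12 of 12 measured) summed to 13890 to 32751 in mutant muscle, with F and G high, and to 13669 to 16088 in wild-type muscle. In testis they summed to 11529.5 to 14041 in the libraries labelled mutant and to 10787 to 19704 in wild types, with A and B high. Mitochondrial genes took 11.5% of reads in mutant muscle G and 7.65% to 8.21% in the other muscle libraries. Germ-cell genes had a median of 0.399% to 1.35% of their testis level in muscle, and muscle-fibre genes had 0.00890% to 0.647% of their muscle level in testis. Each tissue was thus led by its own markers.

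Ribosomal protein mRNAs made up a larger part of the counted reads in muscle than in testis. Together the 81 genes took 1.83%, 2.19% and 2.60% of counts in mutant muscle, against 1.52%, 1.47% and 1.87% in wild-type muscle. They took 1.02%, 0.969% and 0.946% in testis labelled mutant, against 0.928%, 0.940% and 0.882% in wild-type testis. Every muscle library lay above every testis library. In bulk tissue, fewer cells of a type and less RNA per cell cannot be told apart.

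Within a tissue the genes covered a wide range even per length of transcript. Per kilobase the median member had 4387 normalised counts in mutant muscle, 3412 in wild-type muscle, 1578 in testis labelled mutant and 1349 in wild-type testis. Rplp1, a part of the stalk that recruits elongation factors, led in muscle, with 17268 ± 2938 per kilobase in mutants and 12979 ± 3128 in wild types (SD, n = 3 each). In wild-type testis Rplp0, the base of that stalk, and Rpl41, a very short protein, led with 5528 ± 236 and 5412 ± 392 per kilobase (SD, n = 3 each), which lie within their spread of each other. In testis labelled mutant the same pair had 5990 ± 222 and 6136 ± 845. The pseudogene Rpl6l was lowest in all 4 groups: its counts were 3.42, 10.2 and 4.14 in mutant muscle, 2.28, 0 and 10.3 in wild-type muscle, 8.07, 10.8 and 11.5 in testis labelled mutant and 7.94, 9.16 and 5.85 in wild-type testis. It did not pass the filter of a count of 10 in 3 libraries of a comparison and was not tested.

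The comparison of wild-type muscle with wild-type testis asked how the set differs between the tissues without the mutant allele. Most ribosomal protein genes were higher in muscle: of 80 tested, 73 were called higher and 4 lower by limma at an adjusted p below 0.05, where 37.3% of all 19994 genes tested were called higher, 50.6% lower and 87.9% in all (88.3% at an unadjusted p below 0.05, against 77 of the 80 members). The median log2 difference of the members was 1.23, a ratio of 2.35, and that of all genes was -0.48. Groups did not overlap for 74 members with muscle higher (92.5%, against 38.1% of all genes) and for 4 with muscle lower (5%, against 51.3%). Fold changes are on the log2(count + 1) scale, which understates differences of low genes. The 4 called lower were Rpl10l, Rpl39l, Rps4l and Rpl3. The 3 not called were Rps28 (log2 difference 0.32), Rpl41 (-0.27) and Rps7 (0.10).

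Rpl3l, the muscle form of the large-subunit protein next to the catalytic centre, had the largest difference of the set. The gene (ENSMUSG00000002500) lies at chr17:24727820-24736143 (GRCm38, GENCODE M21). Its count was 9578, 8193 and 6425 in mutant muscle and 7614, 8996 and 10440 in wild-type muscle. It was 71.6, 62.1 and 54.2 in testis labelled mutant and 48.5, 24.2 and 50.1 in wild-type testis. Muscle and testis were far apart, with wild-type muscle 224-fold above wild-type testis (log2 difference 7.81, SE 0.27, adjusted p = 3.11e-08). Its general form Rpl3 had 1576, 2307 and 2636 in mutant muscle, 1491, 1397 and 1517 in wild-type muscle, 1956, 1766 and 1676 in testis labelled mutant and 1715, 1751 and 1582 in wild-type testis. Rpl3 alone among the general forms was called lower in wild-type muscle than in wild-type testis (log2 difference -0.20, SE 0.07, adjusted p = 0.0359). That call did not hold up: its sign turned with TMM scaling (0.0034), with edgeR (0.0029) and in the mutant tissues (0.24), and the adjusted p was 0.0833 with the mouse as a block, in a range of 0.0196 to 0.974 over the alternatives. Per kilobase, Rpl3l made up 78.0% ± 7.6 of Rpl3l plus Rpl3 in mutant muscle and 85.6% ± 2.0 in wild-type muscle, against 3.30% ± 0.20 in testis labelled mutant and 2.35% ± 0.89 in wild-type testis (SD, n = 3 each).

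Rpl10l and Rpl39l, the germ-line copies, ran the other way. Rpl10l (ENSMUSG00000060499, chr12:66283379-66284401) is a copy in 1 exon, whereas Rpl39l (ENSMUSG00000039209, chr16:10170226-10174911) has 3 exons. Rpl10l had 27.4, 7.13 and 11.4 in mutant muscle, 23.9, 23.8 and 16.7 in wild-type muscle, 1978, 2316 and 1934 in testis labelled mutant and 1800.3, 2006 and 1897 in wild-type testis. Wild-type muscle was 85.6-fold lower than wild-type testis (log2 difference -6.42, SE 0.16, adjusted p = 6.28e-09). Its X-linked partner Rpl10, a protein of the tRNA-binding side that is fitted late in assembly, had 6622, 8739 and 8590.4 in mutant muscle, 5303, 5244 and 7858 in wild-type muscle, 471, 442 and 456 in testis labelled mutant and 435, 427 and 408 in wild-type testis. Rpl10 was 14.2-fold higher in wild-type muscle than in wild-type testis, so the copy and its partner differed between tissues in opposite directions. The copy made up 79.1% ± 2.0 of the pair per kilobase in testis labelled mutant and 78.9% ± 1.2 in wild-type testis, and at most 0.378% in each muscle library (SD, n = 3 each).

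Rpl39l, whose partner lines the tunnel through which the new protein leaves, had 39.9, 25.5 and 39.4 in mutant muscle, 29.6, 27.1 and 38.5 in wild-type muscle, 1875, 1929.6 and 1729.96 in testis labelled mutant and 1578, 1582 and 1546 in wild-type testis. It was 48.5-fold lower in wild-type muscle than in wild-type testis (log2 difference -5.60, SE 0.14, adjusted p = 7.64e-09). Rpl39, on the X chromosome, had 1533, 1579 and 2161 in mutant muscle, 1113, 1070.15 and 1591 in wild-type muscle, 112, 115 and 117 in testis labelled mutant and 116, 92.5 and 90.2 in wild-type testis. No library of either tissue fell in the range of the other for Rpl39l or for Rpl39. The copy made up 92.4% ± 0.52 of the pair per kilobase in testis labelled mutant and 92.3% ± 0.96 in wild-type testis, the highest share of the 6 pairs there (SD, n = 3 each).

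Rps4l, a copy of the X-linked small-subunit gene Rps4x that lies in 1 exon (ENSMUSG00000063171, chr6:148354656-148355598) and is annotated as a transcribed processed pseudogene, followed the same pattern at a smaller size. It had 67.3, 84.5 and 105 in mutant muscle, 72.9, 62.8 and 91.2 in wild-type muscle, 809, 828.5 and 808 in testis labelled mutant and 783, 786 and 765 in wild-type testis. Wild-type muscle was 10.3-fold lower than wild-type testis (log2 difference -3.36, SE 0.15, adjusted p = 1.17e-07). Rps4x itself had 5439.8, 6051 and 6724 in mutant muscle, 4321, 4439.7 and 5427 in wild-type muscle, 312, 278 and 286 in testis labelled mutant and 306, 327 and 279.8 in wild-type testis. Per kilobase the annotated pseudogene made up 74.3% ± 1.4 of the pair in testis labelled mutant and 72.6% ± 1.3 in wild-type testis, against 1.42% ± 0.16 in mutant muscle and 1.62% ± 0.16 in wild-type muscle (SD, n = 3 each).

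The other pairs held a mixture in both tissues. Rpl36al, another copy in 1 exon, was 2.38-fold higher in wild-type muscle than in wild-type testis, and its X-linked partner Rpl36a 10.1-fold. Rpl36al had 2304, 3917 and 3945.5 in mutant muscle, 2099, 2017 and 2773 in wild-type muscle, 1132, 1079 and 1001 in testis labelled mutant and 933, 965 and 965 in wild-type testis. Its share of the pair per kilobase was 42.0% ± 5.5 in mutant muscle and 42.5% ± 0.92 in wild-type muscle, against 75.3% ± 2.5 in testis labelled mutant and 75.9% ± 0.81 in wild-type testis. The transcripts used were 1276 bases for Rpl36al and 483 for Rpl36a. Without division by length its share was 65.5% ± 5.0 in mutant muscle and 66.1% ± 0.84 in wild-type muscle. In testis it was then 88.9% ± 1.3 in libraries labelled mutant and 89.3% ± 0.42 in wild types. Which gene of the pair was higher in muscle thus depended on the division by length. Rps27l, a copy of Rps27 known in human cells as a p53 target, made up 33.6% ± 0.45 of its pair in mutant muscle and 33.3% ± 2.2 in wild-type muscle, against 21.4% ± 2.7 in testis labelled mutant and 20.8% ± 1.3 in wild-type testis (SD, n = 3 each). Neither partner of this pair lies on the X chromosome.

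**Figure D1:**
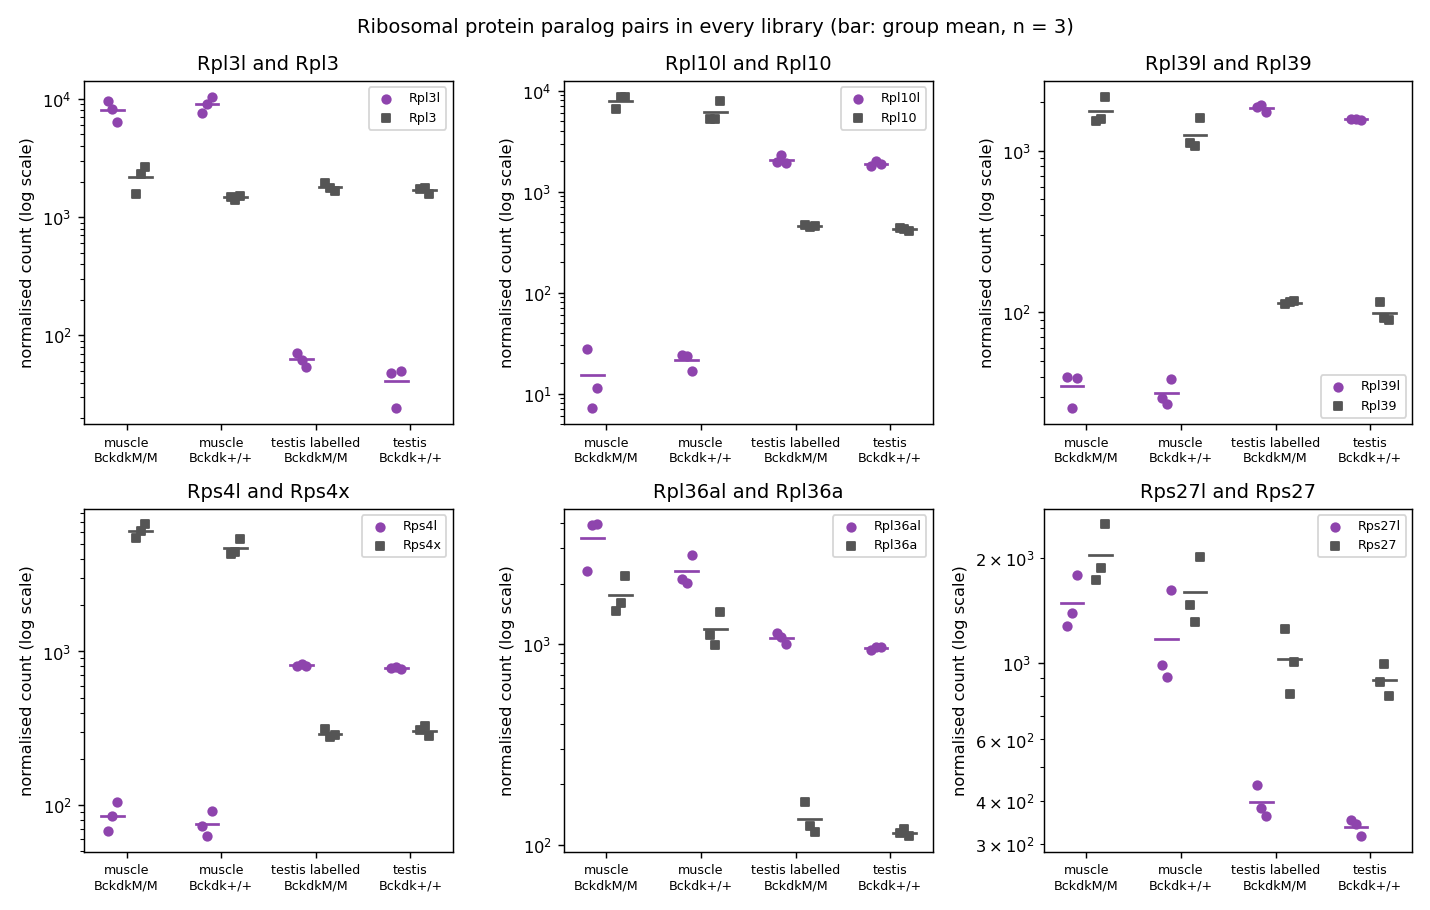
Normalised counts (log axis) of 6 paralog pairs in each of the 12 libraries, by group, with circles for the copy, squares for the general form and bars for the mean of 3 libraries. Rpl3l lies between 6425 and 10440 in muscle and between 24.2 and 71.6 in testis, whereas Rpl10l, Rpl39l and Rps4l lie between 7.13 and 105 in muscle and between 765 and 2316 in testis.

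The copies and their partners are not identical enough for whole read pairs to be shared freely. Over the aligned part of their transcripts they matched at 75.3% (Rpl3l and Rpl3) to 87.7% (Rpl36al and Rpl36a) of positions, and the longest identical stretch was 11 bases for Rps27l and Rps27 and 38 bases for Rpl39l and Rpl39 and for Rps4l and Rps4x, where reads were 150 bases long. How closely the numbered pseudogenes of the family match their parents was not measured. The table listed 257 features named as numbered pseudogenes of 56 of the members, 177 of them with reads. Their summed count had a median of 0.191% of the parent in mutant muscle, 0.146% in wild-type muscle, 0.293% in testis labelled mutant and 0.341% in wild-type testis. The highest share, for the X-linked Rpl36a, was 11.4% in testis labelled mutant and 9.41% in wild-type testis, and how reads are split between Rpl36a and these copies is uncertain.

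All 4 X-linked members stood apart in the same direction. Rps4x was 15.4-fold, Rpl10 14.2-fold, Rpl39 12.4-fold and Rpl36a 10.1-fold higher in wild-type muscle than in wild-type testis (log2 differences 3.95, 3.83, 3.63 and 3.33, each with an adjusted p of 2.02e-07 or less by limma). The 72 autosomal members other than Rpl3l, Rpl10l, Rpl39l and Rps4l ran from -0.27 to 2.88, with a median of 1.23. No autosomal member apart from Rpl3l reached the lowest X-linked one. Among all 753 X-linked genes tested, 114 (15.1%) had a log2 difference above 3, against 10.4% of autosomal genes, and the median X-linked gene was lower in muscle (-0.55). Most X-linked genes thus had no difference of this size.

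Among members higher in muscle, the largest differences after Rpl3l and the X-linked genes were those of Rps2, Rpl10a, Rpsa, Rps3 and Rpl14. Rps2, at the site where mRNA enters the small subunit, was 7.36-fold higher in wild-type muscle than in wild-type testis (log2 difference 2.88, SE 0.13), with 10702, 11579 and 15307 against 1744, 1661 and 1639. Rpl10a was 4.84-fold, Rpsa, also known as the laminin receptor, 4.77-fold, Rps3, which also has roles in DNA repair, 4.77-fold and Rpl14 4.46-fold higher. The stalk proteins Rplp1 and Rplp2 had log2 differences of 1.84 and 1.73, whereas Rplp0, to which they bind, had 0.58, and Rps6, the substrate of S6 kinase, had 1.10.

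**Figure D2:**
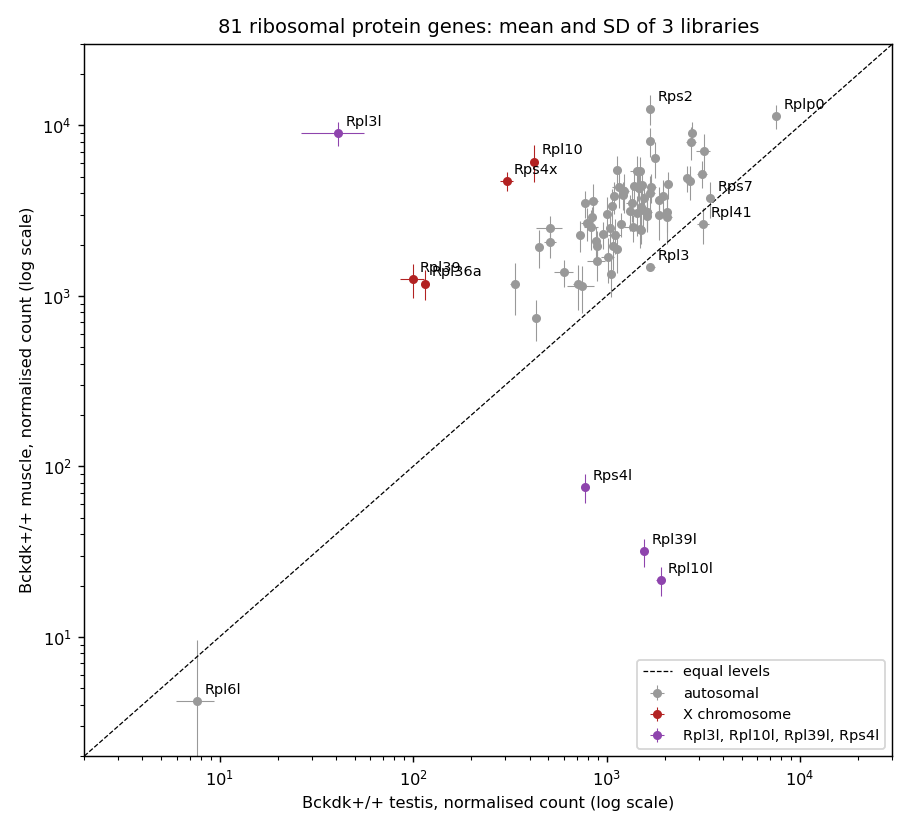
Mean normalised count in wild-type muscle against wild-type testis for the 81 genes (log axes, bars show SD over 3 libraries, dashed line marks equal levels). Most autosomal genes lie a little above the line, the 4 X-linked genes and Rpl3l lie further above it, and Rpl10l, Rpl39l and Rps4l lie far below.

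Because each tissue held traces of the other, the low values of the tissue copies were set beside cell-type markers. In muscle, 14 germ-cell markers had a median of 1.35%, 0.484% and 0.399% of the wild-type testis level in mutants and 1.14%, 1.04% and 1.29% in wild types, with none at 0. Rpl10l stood at 1.44%, 0.375% and 0.600% in the mutants and 1.26%, 1.25% and 0.878% in the wild types, near the markers' median in each library. Rpl39l was at 1.62% to 2.54% in the mutants and 1.72% to 2.46% in the wild types, and Rps4l at 8.65% to 13.5% in the mutants and 8.07% to 11.7% in the wild types, above the markers' median in all 6. The highest single marker was at 9.35% to 21.4% in the mutants and 12.9% to 17.3% in the wild types, and only in mutant F was Rps4l above it. In testis, 14 muscle-fibre markers had a median of 0.647%, 0.580% and 0.585% of the wild-type muscle level in libraries labelled mutant and 0.291%, 0.00890% and 0.643% in wild types. Rpl3l stood at 0.794%, 0.689% and 0.601% in the libraries labelled mutant and 0.538%, 0.268% and 0.556% in wild types. Rpl3l was lowest in wild-type testis B, where its 0.268% lay above the markers' median of 0.00890%. The markers of that library ran from 0, for Tnni2, to 0.948%, which is above Rpl3l. The part of such traces in the low values was not tested.

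**Figure D3:**
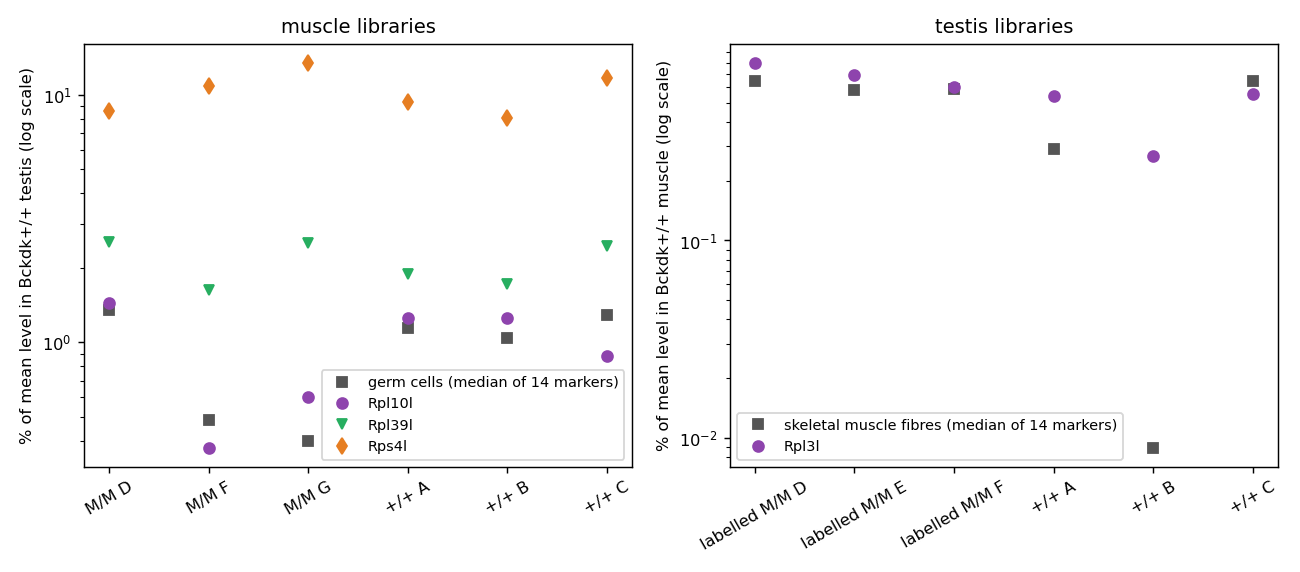
Levels as a percentage of the wild-type mean in the tissue where the gene is high (log axes), per library, for Rpl10l, Rpl39l, Rps4l and the median of 14 germ-cell markers in muscle (left) and for Rpl3l and the median of 14 muscle-fibre markers in testis (right). Rpl10l lies near the germ-cell median in every muscle library, Rps4l lies above it, and Rpl3l falls to 0.268% in wild-type testis B.

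The muscle comparison asked whether ribosomal protein mRNAs differ in BckdkM/M muscle. No member was called, by limma (0 of 80, with 21 at an unadjusted p below 0.05), DESeq2 (0 of 80) or edgeR (0 of 80), where 0.0369% of all 16246 genes were called by limma and 9.52% had an unadjusted p below 0.05. The log2 change was positive for 78 of 80 members, with a median of 0.35 (a ratio of 1.28), against -0.04 for all genes, of which 44.5% were positive. The members share libraries and are not independent of each other, so the count is no measure of certainty. The negative pair was Rpl3l and Rpl10l. Values of mutants and wild types did not overlap, with mutants higher, for 4 members (5%, against 5.11% of all genes), namely Rpl13, Rpl3, Rpl36a and Rps4x, and with mutants lower for none (8.85% of all genes). The count of 4 was 8 with scaling within muscle (against 6.85% of all genes) and 19 on CPM, counts divided by the library total (against 9.05%). The 21 members with an unadjusted p below 0.05 also depended on scaling and on single libraries. They were 47 with scaling within muscle (against 9.25% of all genes), 42 with TMM (9.26%) and 53 with DESeq2 (8.21%). They were 74 without wild-type C (8.58%) and 43 without mutant D (21.2%), but 2 without wild-type A (7.08%) or B (4.19%), 7 without mutant F (5.57%), 4 without mutant G (4.29%) and 0 without both F and G (2.80%).

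The shift ran through whole libraries rather than through a few genes. Relative to the wild-type mean, the median member stood at log2 0.19, 0.29 and 0.58 in mutants and at -0.15, -0.20 and 0.35 in wild types. Wild-type C was the highest wild type for 79 of 80 members and lay above mutants D and F at the median, while among mutants G was the highest for 71 and D the lowest for 72. The median log2 change was 0.54 without wild-type C, 0.24 without mutant G, and 0.19 without F and G, the libraries with more islet transcripts, which leaves D as the lone mutant. Red blood cell genes (5 of 5 measured, none at 0) summed to 3623 to 6001 in mutants and 2724 to 2867 in wild types, and genes of pancreatic acinar cells (10 of 10, none at 0) to 261 to 419 in mutants and 116 to 257 in wild types, both without overlap. Adipocyte genes (5 of 5, none at 0) summed to 15154, 14564 and 48656 in mutants, highest in G, and to 18060, 14886 and 3546 in wild types, lowest in C. Macrophage genes (7 of 7, none at 0) summed to 3047 to 4281 in mutants and 3221 to 3342 in wild types. Their part in the shift, and that of the mitochondrial share of G, was not tested.

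**Figure D4:**
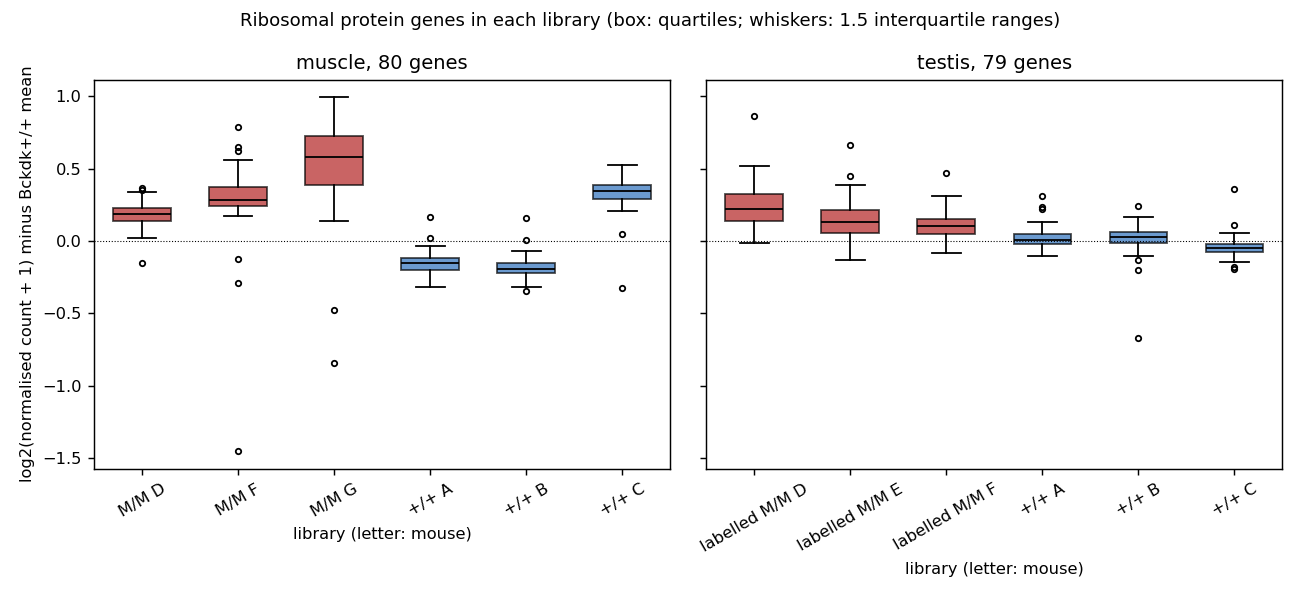
Log2(normalised count + 1) minus the Bckdk+/+ mean of the same tissue for each ribosomal protein gene, as 1 box per library (line: median; box: quartiles). The mutant muscle medians of 0.19, 0.29 and 0.58 overlap with wild-type C at 0.35, whereas the testis medians of 0.22, 0.13 and 0.11 in libraries labelled mutant lie above 0.01, 0.03 and -0.05 in wild types.

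The members with the smallest p show the same order of libraries. Rpl12, a protein of the stalk base, had 5054, 6012 and 6997 in mutant muscle, against 3137, 3680.1 and 5189 in wild-type muscle (log2 change 0.61, SE 0.20, adjusted p = 0.519 by limma, range over the alternatives 0.0807 to 1.00). Wild-type C lay above mutant D. Rps12 had 2829, 3195 and 4473 in mutants against 1960.1, 2005 and 2905 in wild types (log2 change 0.61), and Rpl38, which takes part in translation of Hox mRNAs in mouse embryos, had 902, 1073 and 1449.5 against 626, 629.8 and 981 (log2 change 0.62). In these, too, wild-type C lay above the lowest mutant. Rpl36a, with 1467, 1605 and 2176 in mutants against 1102, 990.1 and 1449 in wild types (log2 change 0.56), and Rpl3 (0.53) were among those whose groups did not overlap. All 5 had an adjusted p of 0.519. Without mutant D, Rpl3 (log2 change 0.75, adjusted p = 0.0264) and Rpl36al (0.79, adjusted p = 0.0378) were called, with the libraries high in islet transcripts then the only mutants. These are 2.5% of the members, against 3.11% of all genes called in that fit.

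Rpl3l and Rpl3 moved apart within the mutant group. The ratio of Rpl3l to Rpl3 counts was 6.08, 3.55 and 2.44 in mutants and 5.11, 6.44 and 6.88 in wild types. Mutant D lay among the wild types and F and G below them. The mean log2 ratio differed by -0.70 (exact permutation test, two-sided, p = 0.2, where 0.1 is the smallest that 3 against 3 can give). Rpl3l itself had a log2 change of -0.17 (SE 0.19, adjusted p = 0.747), which was 0.10 without F and G. For the 12 ratios tested, 6 pairs in 2 tissues, the lowest adjusted p was 0.48. The sum of the 14 muscle-fibre markers (14 of 14 measured, none at 0) was 3306815, 2779309 and 2049438 in mutants and 2996360, 3087967 and 3733451 in wild types, lowest in F and G as well. Its part in the ratio was not tested.

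In testis no member was called either, by limma (0 of 79, with 36 at an unadjusted p below 0.05), DESeq2 (0 of 79) or edgeR (0 of 79), where 0.0205% of all 19543 genes were called by limma and 7.09% had an unadjusted p below 0.05. Rpl30 was left out because its value in D was lost. Its counts were 1820.2 and 1658 in E and F labelled mutant, against 1512, 1512 and 1521 in wild types. The log2 change was positive for 77 of 79 members, with a median of 0.17, against 0.03 for all genes. The libraries labelled mutant lay above the wild types without overlap for 40 members (50.6%, against 9.72% of all genes) and below for none (3.67% of all genes). With scaling within testis the count of 40 fell to 24 (against 6.18% of all genes), and on CPM to 16 (against 4.33%). With scaling within testis 18 members had an unadjusted p below 0.05, against 5.46% of all genes.

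The shift in testis was largest in D. The median member stood at log2 0.22, 0.13 and 0.11 in libraries labelled mutant and at 0.01, 0.03 and -0.05 in wild types. Among libraries labelled mutant D was the highest for 55 of 80 members and F for 1. The 36 members with an unadjusted p below 0.05 were 44 without E (against 11.2% of all genes) and 40 without F (5.44%). They were 30 without wild-type B (4.76%), 29 without wild-type A (4.96%), 19 without D (6.13%) and 16 without wild-type C (6.72%). In the model of all 12 libraries there was 1 (2.44%). Without wild types A and B, which leaves C as the lone wild type, the members' median log2 change was 0.21. Rpl12, which also had the smallest p in muscle, had 2054, 1993 and 1938 in libraries labelled mutant against 1761, 1688 and 1568 in wild types (log2 change 0.26, SE 0.06, adjusted p = 0.673, range over the alternatives 0.148 to 1.00). The groups did not overlap for it. Rps7, a small-subunit protein that in human cells also binds MDM2, had 3928, 4015 and 3865 against 3531, 3363 and 3373 (log2 change 0.20), and Rpl39l had a log2 change of 0.23. Rpsa had 0.21 and Rps23, a protein of the decoding centre, 0.19, and the adjusted p of these 5 was 0.673 to 0.696. The X-linked Rps4x had -0.06 (SE 0.10, adjusted p = 0.922), which turned to 0.06 without wild types A and B, and Rpl10l had 0.12 (SE 0.07, adjusted p = 0.755). Germ-cell markers (14 of 14 measured, none at 0) summed to 276860 to 287481 in libraries labelled mutant and to 255765 to 267901 in wild types, without overlap. Red blood cell genes (5 of 5 measured, none at 0) summed to 291 to 334 in libraries labelled mutant and to 234 to 283 in wild types, also without overlap. The part of both in the shift was not tested.

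**Figure D5:**
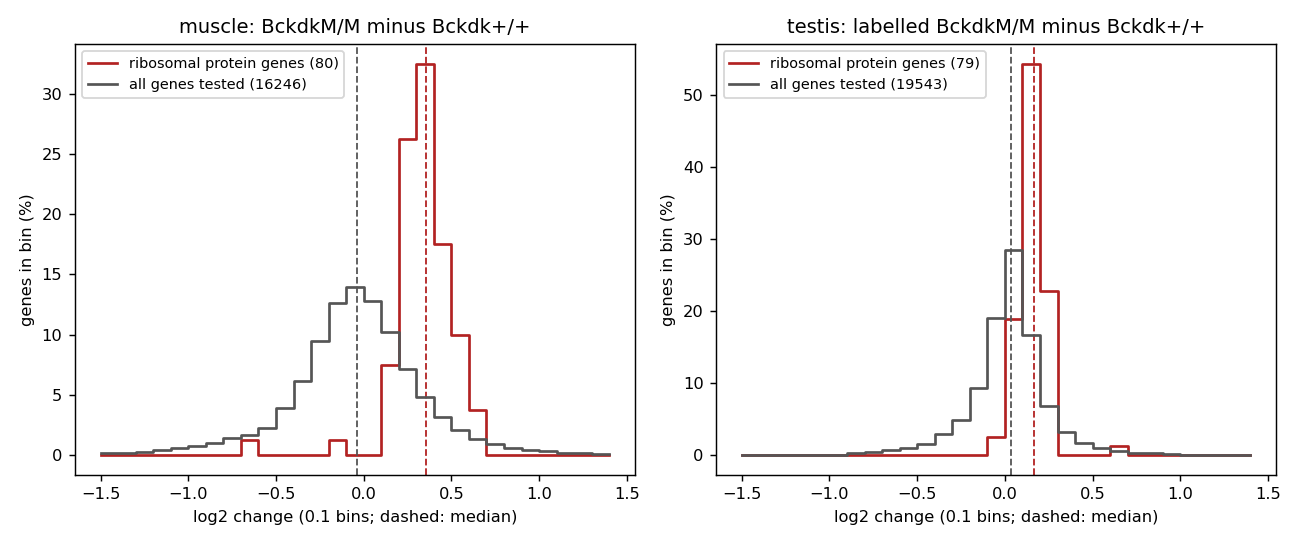
Share of genes in each 0.1-wide bin of log2 change (BckdkM/M minus Bckdk+/+) for the ribosomal protein genes and for all genes tested, in muscle (left) and testis by label (right), with dashed lines at the medians; genes beyond the axis are not drawn. The members' medians of 0.35 and 0.17 lie to the right of those of all genes, -0.04 and 0.03.

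Whether the genotype change differed between the tissues was asked of all 12 libraries in 1 model. No member was called (0 of 79 by limma, DESeq2 and edgeR, with 2 at an unadjusted p below 0.05 by limma), where 0.0136% of all 14677 genes were called and 8.69% had an unadjusted p below 0.05. The median of muscle change minus testis change was 0.19 for the members and -0.08 for all genes. It was 0.081 with the mouse as a block, 0.084 without mutant muscle G and 0.36 without wild-type muscle C, so its size rests on single libraries. Rps4x had the smallest p (difference 0.42, SE 0.16, adjusted p = 0.574), being 0.36 in muscle and -0.06 in testis. Rpl3l followed (difference -0.83, SE 0.34, adjusted p = 0.574), with -0.17 in muscle and 0.66 in testis. The muscle-fibre markers in testis were at 0.580% to 0.647% of the muscle level in libraries labelled mutant and at 0.00890% to 0.643% in wild types, and their part was not tested. Rpl3, Rps19, a small-subunit protein mutated in human Diamond-Blackfan anaemia, and Rpl14 had differences of 0.44, 0.43 and 0.28. Without mutant muscle D, 3 members were called: Rpl3 (0.65, adjusted p = 0.0122), Rpl36al (0.63, adjusted p = 0.0423) and Rpl10l (-1.27, adjusted p = 0.0132). These are 3.80% of the members, below the 6.57% of all genes called in that fit. The mutant muscle counts of Rpl10l in that fit were 7.13 and 11.4, near the filter of 10. Germ-cell markers in mutant muscle F and G had medians of 0.484% and 0.399% of their testis level, against 1.04% to 1.29% in wild-type muscle. Their part in the call of Rpl10l was not tested. The 2 members with an unadjusted p below 0.05 became 37 without wild-type muscle C (against 8.03% of all genes) and 9 without mutant muscle D (21.1%).

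Genes around the ribosome had medians near or below 0 in mutant muscle, apart from ribosomal genes and paralogs whose symbols fall outside the form used here. The 6 such genes followed here (Fau, Rack1, Rps3a1, Rpl22l1, Rpl7l1 and Rps27rt) were all positive in mutant muscle, with a median log2 change of 0.39 and none called. Rps27rt was low, with counts of 34.2, 21.4 and 34.2 in mutant muscle and 10.2, 10.8 and 29.5 in wild-type muscle. Rps3a1 had a log2 change of 0.40 and Rpl22l1 0.38 (adjusted p = 0.519 each). Of 15 other mRNAs with a TOP tract, mostly elongation and initiation factors, 7 were positive and 8 negative (median -0.04, none called), with Eef1b2 at 0.39 and Eif4b at -0.28. Of 35 ribosome biogenesis genes 17 were positive and 18 negative (median -0.03, none called), among them Rrn3, a cofactor of RNA polymerase I, at -0.39, and Nop2, a methylase of ribosomal RNA, at -0.38. Of 6 chaperones of ribosomal proteins 2 were positive (median -0.06, none called), with Grwd1 at -0.18 and Heatr3 at -0.16. Of 10 genes that regulate TOP mRNA translation 2 were positive and 8 negative (median -0.30, none called). Eif4ebp2, an mTOR-controlled repressor of cap-dependent translation, had a log2 change of -0.81 (SE 0.28) and Mtor itself -0.45 (SE 0.17). Both had an adjusted p of 0.519 by limma.

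In testis 14 of the 15 other TOP mRNAs were positive (median 0.08, none called), with Tpt1 at 0.22 and Eef1b2 at 0.25. Of 35 biogenesis genes 24 were positive (median 0.05), with Npm1 at 0.18 and Wdr12 at 0.16, and all 6 chaperones were positive (median 0.07), with Pno1 at 0.30 and Heatr3 at 0.27. Of 9 regulators tested 5 were positive (median 0.05). None of these genes was called. Between wild-type tissues, 37.3% of all genes tested were called higher in muscle than in testis and 50.6% lower. All 6 of the ribosomal genes and paralogs outside the symbol form were called higher in muscle, Rps3a1 and Rack1 by 2.32 and 2.31 on the log2 scale. Of 15 other TOP mRNAs 9 were called higher and 4 lower, with Tpt1 at 2.73 and Pabpc1 at -3.57. Of 35 biogenesis genes 15 were called higher and 16 lower. Of 6 chaperones 5 were called higher and 0 lower (median log2 difference 1.70). Of 10 regulators of TOP mRNA translation 7 were called higher and 2 lower (median 1.96). Eef1a2, the muscle form of elongation factor 1A and thus a counterpart of Rpl3l outside the ribosome, was 8.31 log2 units higher in wild-type muscle than in wild-type testis. Its change was -0.39 in mutant muscle (SE 0.23, adjusted p = 0.575) and 0.94 in testis labelled mutant (SE 0.38, adjusted p = 0.696). Eef1a2 had 214, 174 and 185 in testis labelled mutant and 110, 44.1 and 195 in wild-type testis. The muscle-fibre markers summed to 20926, 19156 and 19516 in testis labelled mutant and to 9601, 1369 and 21467 in wild-type testis. In muscle Eef1a2 had 30635, 26136 and 17574 in mutants and 28802, 31453 and 35006 in wild types. The part of the fibre markers in these changes was not tested.

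The members' changes also went with transcript length in both tissues. In muscle, Spearman's rho of length with log2 change was -0.36 across the 80 members and -0.18 across all genes with a length. In testis by label it was -0.26 across 79 members and -0.18 across all genes. These are given as a description because genes in the same libraries share depth and RNA quality. In muscle the 27 shortest (345 to 738 bases) had a median change of 0.38 and the 26 longest (1049 to 3706 bases) 0.30. In mutant G, the library with the highest mitochondrial share, the median stood at 0.69 for the shortest and 0.49 for the longest, whereas in D both stood at 0.18.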

How the data were processed

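RNA from 12 libraries was counted per gene. Per the submitters' processing notes, tools included HTSeq 0.11.2 and HISAT2 2.1.0, the build was GRCm38.p4, and the notes also list DESeq2 1.46.0, Picard 1.119 and fastp 0.23.4. Strand handling is not given in the sources used here. The authors deposited signal values per gene, which are read counts divided by a size factor per library, and regularised log2 (rlog) values, used as an alternative. Whole reads were recovered for 100% of values within 0.001. In testis D labelled mutant 26 values, among them Rpl30, had become dates and were treated as missing. Column names carry mouse numbers, which the sample titles do not.

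The members and gene lists were chosen with earlier results of these data known. Log2(normalised count + 1) was compared with limma 3.58.1 under R 4.3.3 (two-sided, eBayes using a mean-variance trend), for genes with at least 10 in at least 3 libraries of the fit. P-values were adjusted over all genes tested (Benjamini-Hochberg, called below 0.05). The interaction used genes past the filter in both tissues. The column numbers of A, B, C, D and F occur in both tissues, so the same mice may have given both. Deviations from the group means correlated at -0.036 to 0.0085 over 14677 genes for libraries of the same number. For libraries of different numbers they correlated at -0.056 to 0.078. The mouse block was an alternative for the comparisons across tissues. Alternatives were pseudocounts of 0.5 and 8, no filter, a mean of at least 50, other scalings, edgeR 4.0.16 (quasi-likelihood) and DESeq2 1.42.0 on recovered reads, a model of all 12 libraries, leaving out each library, and leaving out libraries with more islet transcripts. The fits were tested on simulated data. Intervals between libraries are the only replicate error, as the labels name biological replicates. Positions are from GENCODE M21 (GRCm38). Levels per kilobase use the principal transcript. The text names the 6 paralog pairs, Rplp0, Rplp1, Rplp2, Rpsa, Rps6, the called members or else the 5 with the smallest p, the 10 largest tissue differences in each direction and up to 4 genes a list. Others were chosen after their values were seen. A gene of the lists is not reported here.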

Additional observations from a re-analysis of the deposited data

How the results depend on the processing

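With 3 libraries a group, how small a shift of a single gene these tests can call was not measured. The genotype results rest on which mice are compared. In muscle 0 members were called, and 0 to 2 when a library was left out (2 of 80 without mutant D, where 3.11% of all genes were called), while the members' median log2 change was 0.24 to 0.54. In testis the count stayed at 0 in every alternative run, with medians of 0.12 to 0.19 when a library was left out. For the difference between tissues the count was 0 to 3 (3 of 79 without mutant muscle D, where 6.57% of all genes were called) and the median 0.084 to 0.36. Between wild-type tissues 74 to 77 members were called when a library was left out (82.5% to 87.7% of all genes), with medians of 1.05 to 1.32, and the median was 0.93 on rlog values and 1.45 with edgeR. Scaling moved the median of all genes between wild-type tissues to -0.28 with TMM, against -0.48 as deposited.

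Further scalings were added after seeing the data: members without overlap, higher in mutants, numbered 8 (scaling within the tissue), 19 (CPM) and 4 (as deposited) in muscle, where 6.85%, 9.05% and 5.11% of all genes did so. In testis they numbered 24, 16 and 40, where 6.18%, 4.33% and 9.72% did so. Of the single-gene values under the alternatives, 1424 kept direction and side of the threshold, 15 changed sign, 5 were newly called and 7 were no longer called. Without the libraries with more islet transcripts, Rpl3l was 0.10, Rpl10l 0.35 and Rps4l -0.15 in muscle, and Rps4x was 0.058 in testis. Rpl3 between wild-type tissues was 0.0034 with TMM, 0.0029 with edgeR and 0.24 between mutant tissues, and was not called with the median of ratios (-0.10) or DESeq2 (-0.11). For the difference between tissues with a library left out, Rpl39l ran from -0.22 to 0.096, Rps4l from -0.053 to 0.26 and Rps27l from -0.0087 to 0.41. The causes were not tested.

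No paired analysis was possible because, within a tissue, mutant and wild-type libraries come from different mice and the replicate numbers of the titles are not tied to columns. Across tissues, with the mouse number as a replicate block, 76 members were called between wild-type tissues (87.0% of all genes) and 0 for the difference of genotype changes, where Rps4l was -0.042, Rps27 -0.14 and Rps27l -0.014 and the members' median was 0.081. The block ended the call of Rpl3 between wild-type tissues and no other call of a named gene.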
